A study of Oryza sativa Indica Group with 226 samples.

Results

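Hydrogen peroxide removal was examined through the ascorbate peroxidase genes APX1 to APX8, the peroxiredoxin gene PRXIIE-2 and a gene on chromosome 7. All probe sets that the array annotation gives to these genes by symbol or synonym were taken, without regard to their values, except that the chromosome 7 gene was picked as 1 probe set of gene LOC4344277 because an earlier look at these data had shown it among the transcripts with a large parental difference. The annotation gives that gene no name; it is called the chromosome 7 peroxidase here after the rule that chose it. This gave 12 probe sets of 9 genes, of 57381 probe sets on the array and 17905 genes that its annotation pairs with a probe set. APX2 had 4 probe sets, APX3 had none annotated and is not analysed here, and the other 6 ascorbate peroxidase genes had 1 each.

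Transcripts were measured in shoots of dark-grown indica rice seedlings, harvested 72 h past germination. There were 110 recombinant inbred lines with 2 arrays each, labelled biological replicate 1 and 2, and their parents, Minghui 63 and Zhenshan 97, had 3 arrays each, 226 arrays in all. The lines descend from a cross of the 2 varieties, all samples were untreated, and all seeds were soaked for 48 h at 25 °C, pregerminated at 35 °C and grown at 25 °C. Values are deposited log2 probe set values, in which a difference of 1 is a doubling; each probe set has its own affinity, so only values of the same probe set are set against each other. The number of arrays, 3 per parent and 2 per line, limits the precision, and p-values measure the spread between arrays labelled as biological replicates.

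Ascorbate peroxidases reduce hydrogen peroxide to water with ascorbate as the electron donor, and the oxidised ascorbate is recycled by monodehydroascorbate, dehydroascorbate and glutathione reductases. Plants hold separate isoforms in several compartments. In rice, APX1 and APX2 are cytosolic, APX3 and APX4 are peroxisomal, APX7 is in the chloroplast stroma and APX8 on the thylakoid membrane. APX5 and APX6 are organellar forms, usually assigned to mitochondria, although sequence predictions also place them in plastids. Peroxiredoxins do the same job with a reactive cysteine that thioredoxins or glutaredoxins reduce again, and PRXIIE-2 belongs to the plastid type II group.

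Of the 12 probe sets, 10 had a mean of at least 5 over all arrays and entered the tests; APX5 (mean 4.32) and 1 APX2 probe set (Os.12693.1.S2_at, mean 4.54) did not, and their tests come from the same fits with no filter. The 17 control probe sets named Tag gave a floor for the scale, with means of 2.55 to 4.63 over the parent arrays. The replicate numbers of the lines stood apart across the whole array: 92.2% of the 27735 tested probe sets differed between replicate 2 and replicate 1 in limma (48.5% lower and 43.7% higher in replicate 2), with a median size of the shift of 0.46. Array medians ran from 4.77 to 5.07. For that reason the lines are described within each replicate number, and no test was made of lines against parents. Among markers of the labelled tissue, the 9 probe sets of shoot and greening genes (rbcS, CAB2R, PORA, PORB and LHCP) had parental means from 2.84 to 13.04, the lowest being 1 rbcS probe set (Os.49262.1.A1_x_at) within the Tag control range. The 6 probe sets of seed storage and amylase genes had parental means from 1.94 to 6.46. Of the root markers, the silicon transporter gene Lsi1 had 7.55 in Minghui 63 and 8.21 in Zhenshan 97, above every seed marker, and the iron transporter gene IRT1 had 3.94 and 4.34.

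Between the parents, the chloroplast enzymes APX8 and PRXIIE-2 and the chromosome 7 peroxidase were lower in Minghui 63, and APX5 was lower in the fit with no filter. The cytosolic, peroxisomal and APX6 transcripts did not pass the test, and neither did the stromal APX7. In the limma fit, 3 of the 10 tested probe sets were called, all of them lower in Minghui 63. Over all tested probe sets 10.5% were called, 5.59% lower and 4.93% higher in Minghui 63. One of those 3, the chromosome 7 peroxidase, was picked for that difference and says nothing about the others.

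APX8 reduces peroxide at the thylakoid membrane, next to photosystem I, where superoxide forms. Its probe set Os.26815.1.S1_at, of a gene on chromosome 2, had 6.47, 6.59 and 7.07 in Minghui 63, against 8.69, 8.40 and 8.25 in Zhenshan 97. All Minghui 63 arrays lay below all Zhenshan 97 arrays. The means were 6.71 ± 0.317 and 8.45 ± 0.224 (SD, n = 3 each), a log2 difference of -1.74 (SE 0.21, limma adjusted p = 0.00262), or 3.33-fold lower in Minghui 63. With all 226 arrays in the fit, which counts the spread between the 2 arrays of each line as residual, the same difference had an adjusted p of 0.141.

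PRXIIE-2, the plastid peroxiredoxin on chromosome 2 (Os.4251.1.S1_at), had 9.07, 9.11 and 8.82 in Minghui 63 and 9.93, 9.99 and 9.86 in Zhenshan 97. The groups did not overlap, and the arrays of each parent lay close together. Minghui 63 averaged 9.0 ± 0.157 and Zhenshan 97 averaged 9.93 ± 0.0651 (SD, n = 3 each). The log2 difference was -0.93 (SE 0.14, limma adjusted p = 0.0082).

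The greening markers moved in the same direction as these 2 chloroplast enzymes. All 8 tested probe sets of the 9 in the list were lower in Minghui 63, and the mean of the list ran from 9.25 to 9.29 over the Minghui 63 arrays and from 10.36 to 10.49 over the Zhenshan 97 arrays. For rbcS, which encodes the small subunit of Rubisco, 1 probe set (Os.12594.1.S1_x_at) differed by -2.17 (limma adjusted p = 9.82e-05). Root markers, of which 1 of 2 was called lower in Minghui 63, had list means of 5.59 to 5.94 against 6.23 to 6.32. Endosperm and aleurone markers had 3.33 to 3.51 against 3.41 to 3.55, and the 1 tested probe set, of the glutelin gene GluA2, did not pass (limma adjusted p = 0.257). The part of these markers in the APX8 and PRXIIE-2 results was not tested. In whole shoots, fewer cells of a type and less RNA per cell cannot be told apart.

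APX7, the stromal form on chromosome 4 (Os.26502.1.S1_a_at), went the other way without passing the test. It had 8.80, 8.90 and 8.61 in Minghui 63, against 8.12, 7.68 and 8.60 in Zhenshan 97. The groups did not overlap, but the highest Zhenshan 97 array nearly reached the lowest Minghui 63 array. The log2 difference was 0.64 (95% interval 0.07 to 1.20, limma adjusted p = 0.147). Without Zhenshan 97 replicate 3 it was 0.87 with an adjusted p of 0.0374. Non-overlap alone is common between these parents, since 32.3% of all tested probe sets showed it.

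The cytosolic forms did not pass the test between the parents. APX1 (Os.12723.1.S1_at, chromosome 3) had 12.08, 12.06 and 11.55 in Minghui 63, against 11.90, 11.64 and 12.05 in Zhenshan 97. These values overlapped, and the difference of 0.03 had a 95% interval of -0.43 to 0.50 (limma adjusted p = 0.943). Its sign turned when single arrays were left out, to -0.06 without Minghui 63 replicate 1, -0.05 without Minghui 63 replicate 2 and -0.08 without Zhenshan 97 replicate 2.

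APX2, on chromosome 7, was read by 4 probe sets that fell into a bright pair and a dim pair. Of the bright pair, Os.12693.1.S1_a_at had 12.72, 12.81 and 12.85 in Minghui 63 and 12.61, 12.63 and 12.72 in Zhenshan 97 (difference 0.14, 95% interval -0.16 to 0.44, limma adjusted p = 0.559). The other, Os.12693.5.S1_x_at, had 12.74, 12.83 and 12.89 against 12.57, 12.70 and 12.65 (difference 0.18, 95% interval -0.13 to 0.49, limma adjusted p = 0.447). Its groups did not overlap, while those of the first did by a single tie. The dim probe set Os.12693.3.S1_at had 5.57, 6.30 and 6.39 in Minghui 63 and 5.53, 5.95 and 5.65 in Zhenshan 97 (difference 0.38, limma adjusted p = 0.394). The second dim one, Os.12693.1.S2_at, had 4.16, 4.21 and 4.47 against 4.52, 4.92 and 3.90, and both parental means, 4.28 and 4.45, lay within the Tag control range. Its difference of -0.17 (limma adjusted p = 0.886 with no filter) turned to 0.07 without Zhenshan 97 replicate 2.

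The peroxisomal APX4 (Os.10609.1.S1_at, chromosome 8) had 10.02, 10.17 and 9.99 in Minghui 63, against 9.92, 9.76 and 9.94 in Zhenshan 97. The Minghui 63 arrays were all higher, by an average of 0.19 (95% interval -0.13 to 0.51, limma adjusted p = 0.451). APX6, on chromosome 12 (Os.9266.1.S1_at), had 9.87, 9.89 and 10.05 in Minghui 63 and 9.97, 9.93 and 9.66 in Zhenshan 97. Those arrays overlapped, with a difference of 0.08 (95% interval -0.27 to 0.43, limma adjusted p = 0.783) that became -0.01 without Zhenshan 97 replicate 3.

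APX5, the gene next to APX6 on chromosome 12, was lower in Minghui 63 in the fit with no filter. Its probe set Os.18504.1.S1_at had 3.33, 2.66 and 3.31 in Minghui 63, against 5.46, 5.15 and 4.41 in Zhenshan 97. The groups did not overlap; all 3 Minghui 63 values and the lowest Zhenshan 97 value lay within the Tag control range, and the other 2 Zhenshan 97 values above it. The means were 3.10 ± 0.381 and 5.01 ± 0.539 (SD, n = 3 each), a log2 difference of -1.91 (SE 0.30, limma adjusted p = 0.0133 with no filter). In that fit 4.66% of the 57194 probe sets were called, 2.61% lower and 2.05% higher in Minghui 63. With single arrays left out, the call was lost without Minghui 63 replicate 2 (-1.69, adjusted p = 0.0576) and without Zhenshan 97 replicate 2 (-1.83, adjusted p = 0.0711).

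The chromosome 7 peroxidase had 3.45, 3.62 and 4.59 in Minghui 63, against 7.33, 8.31 and 9.71 in Zhenshan 97. Every Minghui 63 value lay within the Tag control range, and the Zhenshan 97 arrays were spread over more than 2 log2 units. The means were 3.89 ± 0.615 and 8.45 ± 1.2 (SD, n = 3 each) and differed by -4.56 (SE 0.59), given as a description since the gene was picked on this contrast. The neighbouring gene PRX112, a class III peroxidase, had 4.15, 4.17 and 3.74 in Minghui 63 and 3.39, 4.95 and 6.90 in Zhenshan 97 by its probe set Os.11556.1.S1_at. That difference was -1.06 (SE 0.77, limma adjusted p = 0.446), with overlapping arrays. By this probe set Zhenshan 97 replicate 3 was at the top, as in the chromosome 7 peroxidase. A second PRX112 probe set, OsAffx.5305.1.S1_at, differed by -0.79 (limma adjusted p = 0.0756). It had 6.94, 7.22 and 6.61 in Minghui 63 and 7.90, 7.91 and 7.32 in Zhenshan 97, where replicate 3 was the lowest.

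**Figure D1:**
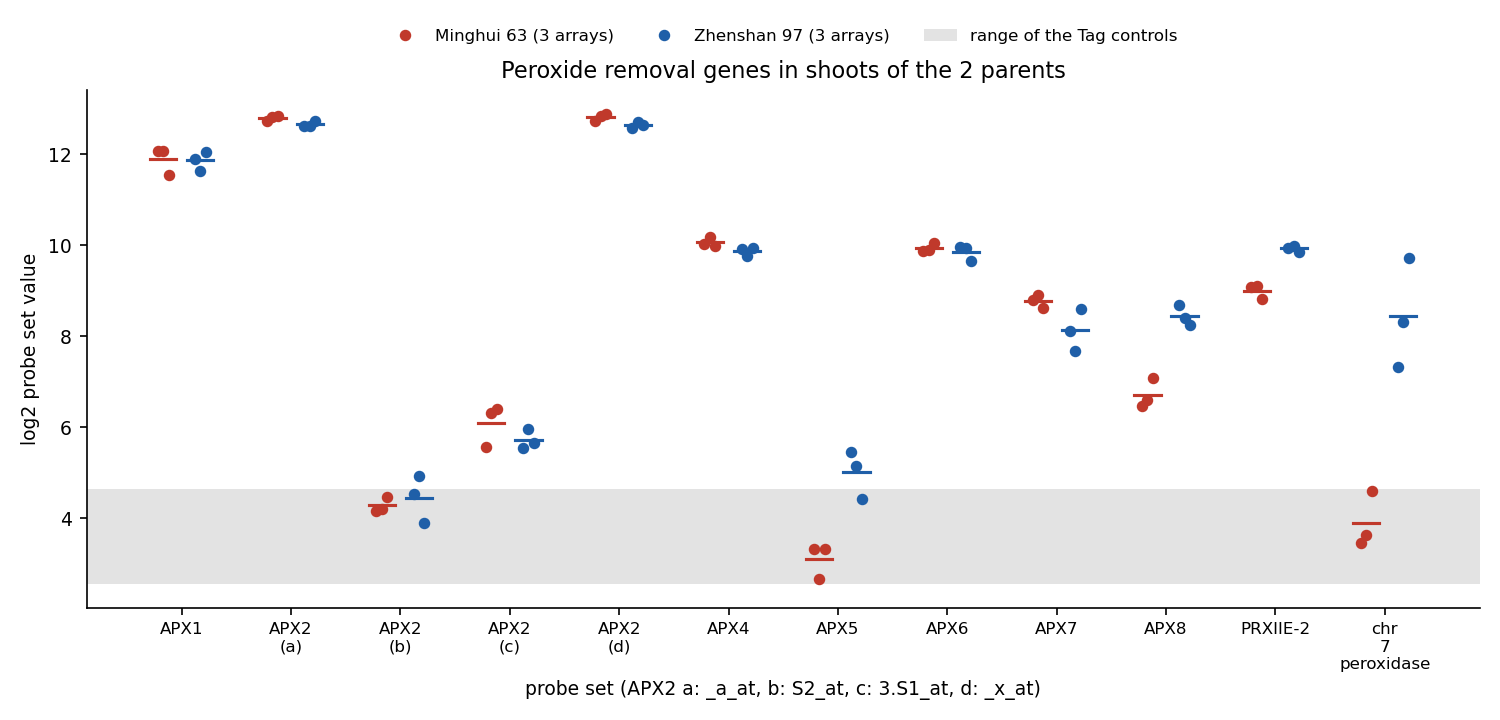
Deposited log2 values of the 12 probe sets on the 3 Minghui 63 arrays (red) and the 3 Zhenshan 97 arrays (blue), with group means as bars and the range of the Tag control means, 2.55 to 4.63, in grey. APX5, APX8, PRXIIE-2 and the chromosome 7 peroxidase are lower in Minghui 63 with no overlap, and the Minghui 63 values of APX5 and the chromosome 7 peroxidase lie in the grey range.

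Variation between the 110 lines was tested with a moderated F test (limma) with replicate number as a block. Repeatability, the mean square between lines minus that within lines over their sum, is near 1 where the 2 arrays of each line lie close together relative to the spread between lines, near 0 where they do not, and can be negative. APX1, APX8, PRXIIE-2 and the chromosome 7 peroxidase varied between the lines, 4 of the 10 tested probe sets, and APX5 did so in the fit with no filter. Over all tested probe sets 16.0% were called, and the median repeatability was 0.06. Without the block 6.01% of all probe sets were called, and of the 10 only APX1 was (0.46, adjusted p = 6.17e-06). The shift between replicate numbers then counts as spread within lines. PRXIIE-2, whose shift was only -0.03, kept its repeatability of 0.25 but had an adjusted p of 0.0736.

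APX5 varied most reproducibly of the 12 probe sets. Its line values ran from 2.80 to 6.05 around a median of 4.12 in replicate 2 (SD 0.83) and from 2.83 to 6.33 around 4.11 in replicate 1 (SD 1.03). Repeatability was 0.87 (moderated F test by limma, no filter, adjusted p = 6.86e-35), and 0.84 without the block. In the fit with no filter 10.7% of all probe sets were called and 3.40% reached a repeatability of 0.5, while the median was 0.04.

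The APX5 values formed 2 groups of lines of nearly equal size, one near each parent. Around the mid-parent value of 4.05, 51 lines had both arrays below and 55 had both above. The low lines had medians of 3.45 in replicate 2 and 3.45 in replicate 1, and the high lines had 4.88 and 5.45. The arrays of the low lines, 2.80 to 4.05 in replicate 2 and 2.83 to 4.05 in replicate 1, all lay within the range of the Tag control means over the line arrays, 2.56 to 4.76 and 2.23 to 4.5. The split at 4.05 itself keeps them under the upper ends of that range. The high lines ran from 4.11 to 6.05 in replicate 2 and from 4.14 to 6.33 in replicate 1. The lowest of the high lines thus also lay within the Tag control range. By line mean, 32 lines fell between 3 and 3.5 and 27 between 5 and 5.5, but only 9 between 4 and 4.5. The 4 lines with 1 array on each side lay near the middle: RIL022 had 4.24 and 3.95, RIL042 had 3.98 and 4.06, RIL062 had 4.06 and 4.04, and RIL159 had 3.86 and 4.08 in replicate 2 and replicate 1. At the ends, RIL027 averaged 2.94 and RIL198 averaged 5.87. No line array lay below all parent arrays, whereas 9 lines in replicate 2 and 27 in replicate 1 lay above all of them.

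**Figure D2:**
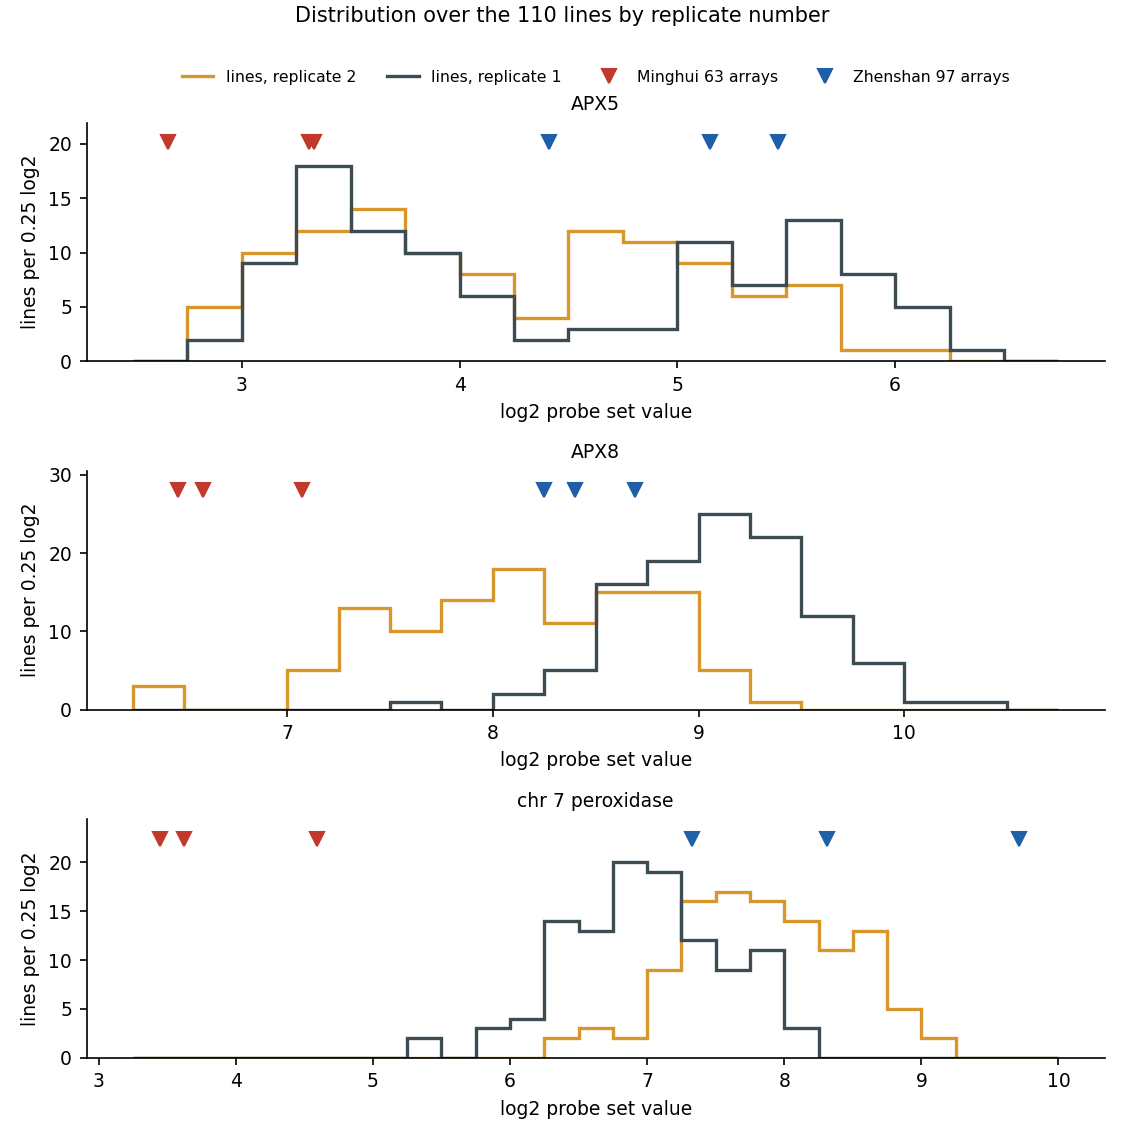
Number of lines per 0.25 log2 units for APX5, APX8 and the chromosome 7 peroxidase, with replicate 2 in orange and replicate 1 in dark grey, and the parent arrays as triangles (Minghui 63 red, Zhenshan 97 blue). APX5 has 2 peaks in both replicate numbers, APX8 is shifted lower in replicate 2, and the chromosome 7 peroxidase lies above all Minghui 63 arrays in every line.

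The transcripts that followed APX5 over the lines lay mostly on its own chromosome. Likeness is the mean of 2 Pearson correlations over the 110 lines, one within each replicate number; it is a description over lines that share a replicate number, with no p. Among the 20 annotated probe sets of other genes with the largest likeness in size, 18 were on chromosome 12, which holds 4.84% of the annotated tested probe sets. Their likeness to APX5 was 0.66 for the strongest and 0.29 in size for the weakest of the 20, and 13 of the 20 were positive. Because APX5 values fall into 2 groups, likeness to it can reflect whether another transcript shows the same split. Likeness within each group was not examined. The 18, probe sets of 15 genes, were 32 to 827 genes away, with a median of 557. The 43 probe sets within 50 genes of APX5 had a median likeness of 0.06 in size. Beyond 50 genes, no tested chromosome 12 probe set had a likeness above 0.37 in size.

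The strongest was Os.18980.1.A1_at, an unnamed gene 32 genes from APX5, with r of 0.61 in replicate 2 and 0.71 in replicate 1. It had 4.64, 4.06 and 4.40 in Minghui 63, against 6.51, 5.90 and 6.27 in Zhenshan 97, with no overlap. Its parental difference of -1.86 (SE 0.22, limma adjusted p = 0.00249) and its repeatability of 0.83 (adjusted p = 9.49e-30) can be set beside the -1.91 and 0.87 of APX5, but in Minghui 63 both probe sets lay within the Tag control range or at its edge, which limits the size of both differences. Named genes were much less like it: 4CL4, a 4-coumarate-CoA ligase, had 0.28, the U-box gene PUB24 had 0.24 and FIB had 0.22.

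APX6, the adjacent gene, did not follow APX5. Their correlation over the lines was 0.08 in replicate 2 and 0.03 in replicate 1. APX6 ran from 8.04 to 9.91 around 8.99 in replicate 2 (SD 0.36) and had a lowest value of 9.15 and a median of 9.71 in replicate 1 (SD 0.17). Its repeatability was -0.01 (adjusted p = 0.696), so that lines high in one replicate number were not high in the other. It was lower in replicate 2 in 108 of the 110 lines, by 0.77 on average (SE 0.04). Of its 20 most similar annotated probe sets only 3 were on chromosome 12.

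**Figure D3:**
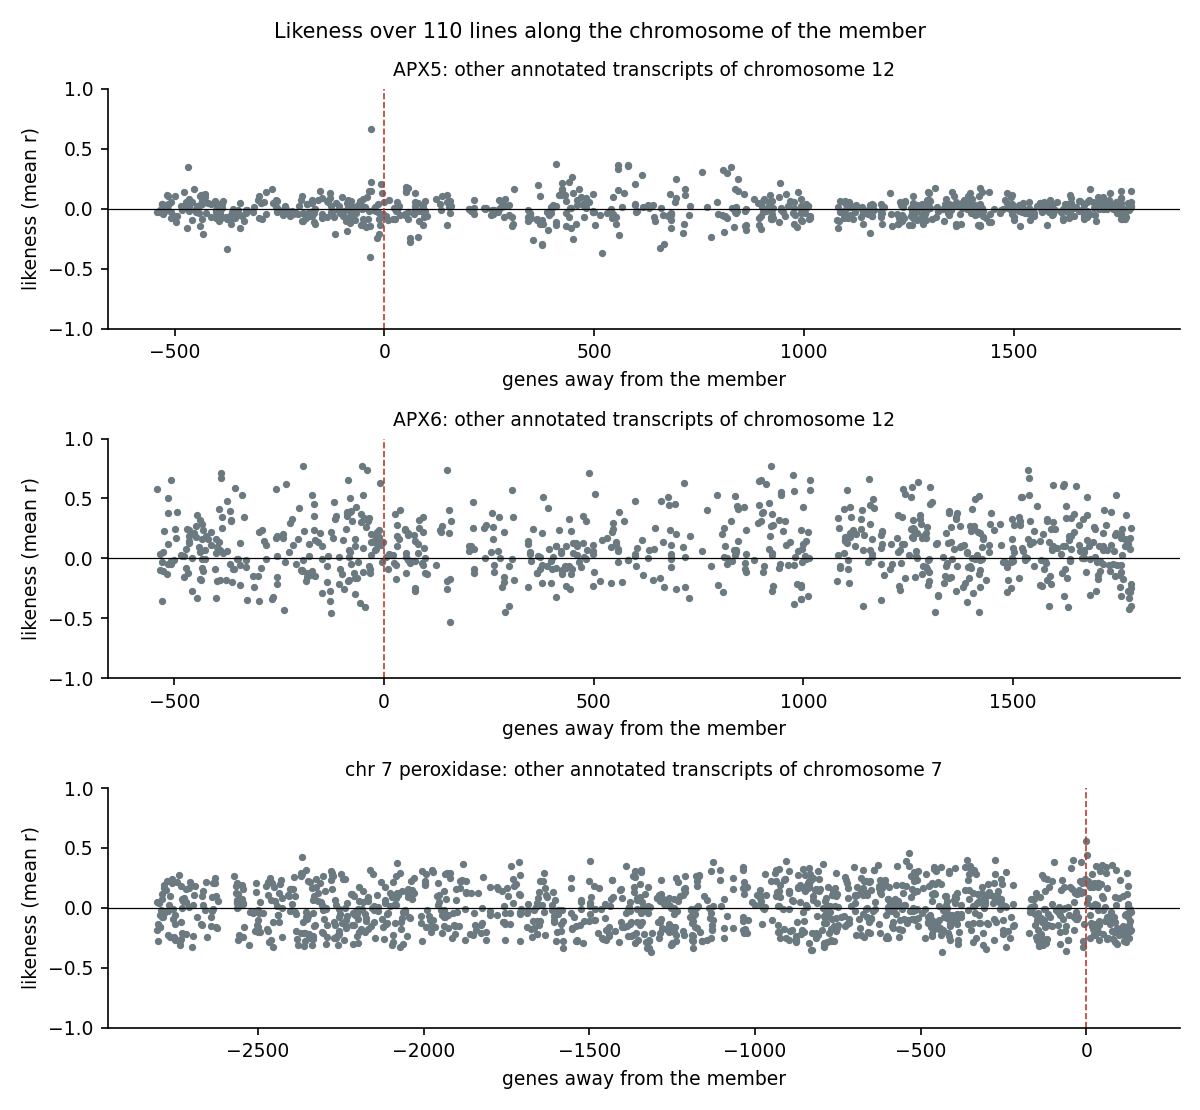
Likeness over the 110 lines (mean Pearson r within replicate 2 and within replicate 1) of annotated probe sets to APX5, APX6 and the chromosome 7 peroxidase, against the number of genes between them on the same chromosome, with the member at 0. For APX5 the 18 strongest points lie 32 to 827 genes from it, for APX6 large values are spread over the whole chromosome, and for the chromosome 7 peroxidase the highest point, 0.56, is 2 genes away.

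APX1, whose parental difference was not called, varied between the lines, most of which lay below both parents. Its line values ran from 9.45 to 12.09 around 11.29 in replicate 2 (SD 0.60) and from 9.12 to 11.94 around 11.19 in replicate 1 (SD 0.48). Repeatability was 0.46 (moderated F test by limma, adjusted p = 1.87e-06). The shift between replicate numbers was 0.07 (SE 0.05, adjusted p = 0.223), and -0.07 with arrays centred on their medians. Most lines read lower than both parents: 106 lines had both arrays under the mid-parent value of 11.88. Below all 6 parent arrays lay 82 lines in replicate 2 and 100 in replicate 1. This position was not particular to APX1. For APX2, which did not pass the line test, Os.12693.1.S1_a_at had 110 such lines in replicate 2 and 51 in replicate 1. The other APX2 probe sets had 108 and 73 (Os.12693.5.S1_x_at), 88 and 90 (Os.12693.3.S1_at), and 0 and 1 (Os.12693.1.S2_at). APX6 had 108 and 35, APX4 had 51 and 28, and APX7 had 17 and 2, and none of them passed either.

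At the low end of APX1, RIL150 was the lowest on average with 9.45 in replicate 2 and 9.12 in replicate 1. The next were RIL163 (9.87 and 10.21), RIL162 (10.49 and 9.80) and RIL175 (9.57 and 10.72), so the 2 arrays of a low line could differ. At the other end RIL241 had 12.09 and 11.85, at the level of the parents. The most similar named transcripts were SDH2-1, a succinate dehydrogenase subunit on chromosome 8 (likeness 0.80), the cystatin gene OC-VIII on chromosome 3 (0.74) and MHZ4 on chromosome 1 (0.70). Only 1 of the 20 strongest was on chromosome 3, which holds 14.2% of the annotated tested probe sets, and it was 875 genes away.

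APX8 had 2 layers of variation, between the replicate numbers and between the lines. Its values ran from 6.37 to 9.43 around 8.11 in replicate 2 (SD 0.64) and from 7.65 to 10.33 around 9.14 in replicate 1 (SD 0.45). Replicate 2 was lower in 108 of 110 lines, by 1.0 on average (SE 0.06, limma adjusted p = 3.2e-32). Within replicate number the lines differed with a repeatability of 0.35 (adjusted p = 0.000466), and without the block the value was -0.26 (adjusted p = 1).

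Many lines read above both parents for APX8, mostly in replicate 1, where its values were higher. This position was not tested. In replicate 2, 24 lines lay above all parent arrays and 3 below all of them; in replicate 1 the counts were 92 and 0. Around the mid-parent value of 7.58, 85 lines had both arrays above and 0 had both below. The lowest on average were RIL191 (6.37 in replicate 2, 8.25 in replicate 1) and RIL192 (7.06 and 7.65), and the highest was RIL054 (9.43 and 10.33). RIL191 and RIL192 were one of 11 pairs of near-identical lines, and so count as about 1 genotype.

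Of named transcripts, GLN2, the plastid glutamine synthetase, was most like APX8 over the lines, with a likeness of 0.88 (r 0.83 in replicate 2 and 0.93 in replicate 1), followed by the leaf ferredoxin-NADP reductase gene LFNR1 with 0.82 and CFBP1, a gene of cytosolic fructose bisphosphatase, with 0.81. The greening markers were positive as well: all 8 tested probe sets had a likeness above 0, from 0.10 to 0.65 with a median of 0.28. Of them PORB, a protochlorophyllide reductase, was the highest. Cytosolic APX1 also had 8 of 8 above 0, from 0.05 to 0.33 with a median of 0.21. The CAB2R probe sets changed sign between numbers, for example -0.20 in replicate 2 and 0.40 in replicate 1 for Os.7941.2.S1_a_at. Of the 20 strongest probe sets 2 were on chromosome 2, which holds 11.9% of those tested.

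PRXIIE-2 varied less. It ran from 9.23 to 10.87 around 10.18 in replicate 2 (SD 0.33) and from 9.07 to 10.89 around 10.25 in replicate 1 (SD 0.39), with a shift between the numbers of -0.03 (SE 0.04). Repeatability was 0.25 with a block (adjusted p = 0.0259) and 0.25 without one (adjusted p = 0.0736). The lines were mostly above the parents, with 81 lines in replicate 2 and 82 in replicate 1 above all 6 parent arrays. That position was not tested either. RIL192 (9.66 and 9.25) and RIL191 (9.50 and 9.42), the pair that was lowest for APX8, were also lowest here, and RIL068 (10.65 and 10.78) was highest.

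The transcripts nearest to PRXIIE-2 were PSB28, a photosystem II assembly factor (0.84), PRIN2, a factor in plastid transcription (0.76), and KPHMT1 of pantothenate synthesis (0.74). Greening markers had a likeness of 0.11 to 0.59 to it, 8 of 8 positive. Positive values were not particular to APX8 and PRXIIE-2: APX1 had 8 of 8, the chromosome 7 peroxidase 7 and APX4 6. APX5 had 4 and APX6 had 2. The correlation of PRXIIE-2 with APX8 was 0.16 in replicate 2 and 0.55 in replicate 1. With the peroxisomal APX4 it was similar, 0.11 and 0.61. APX7 stood apart from APX8 and PRXIIE-2. Its correlation with APX8 was -0.13 and -0.41, and with PRXIIE-2 it was -0.38 and -0.03. None of the 8 greening probe sets had a positive likeness to APX7.

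APX7 ran from 7.11 to 8.71 around 8.0 in replicate 2 (SD 0.33) and from 7.62 to 8.78 around 8.16 in replicate 1 (SD 0.22). Its repeatability of 0.21 did not pass (adjusted p = 0.0801). With 5 lines left out whose replicate difference was unlike that of the others, a step added after the data had been seen, it was 0.25 with an adjusted p of 0.0375. It was lower in replicate 2 in 76 lines, by 0.19 on average (SE 0.03).

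The chromosome 7 peroxidase showed a narrower range among the lines than between the parents. This range and the position of the lines against the parents are descriptions, since the gene was picked for its parental difference. It ran from 6.31 to 9.22 around 7.83 in replicate 2 (SD 0.60) and from 5.31 to 8.17 around 6.98 in replicate 1 (SD 0.58). Repeatability was 0.31 (moderated F test by limma, adjusted p = 0.00249) with the block and -0.15 without it. Replicate 2 was higher in 100 lines, by 0.87 on average (SE 0.07), the opposite direction to APX8 and APX6.

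No line array reached the level of Minghui 63 for this gene. The lowest line array was 5.31, while the highest Minghui 63 array was 4.59, and 102 of 110 lines had both arrays above the mid-parent value of 6.17. All lines thus lay between the Minghui 63 arrays and the highest Zhenshan 97 array of 9.71. RIL156 was the lowest on average (6.40 in replicate 2 and 6.09 in replicate 1) and RIL206 the highest (9.22 and 7.98).

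The gene most like the chromosome 7 peroxidase was unnamed and 2 genes away (Os.5034.1.S1_at, likeness 0.56). In the parents that neighbour had 7.33, 7.5 and 6.38 in Minghui 63 and 6.41, 7.04 and 7.89 in Zhenshan 97, a difference of -0.04 (limma adjusted p = 0.967). PRX112, next to it, had a likeness of 0.45 by Os.11556.1.S1_at, which varied between the lines (repeatability 0.23, adjusted p = 0.0274), and 0.04 by OsAffx.5305.1.S1_at, so the probe sets of that gene disagree. Of the 20 strongest, 3 were on chromosome 7, against 7.57% of those tested. The highest named genes were G1L1 (0.46), BURP16 (0.45) and HSP81-1 (0.45), on 3 other chromosomes.

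APX2 and APX4 did not pass the test between lines. The bright APX2 probe set Os.12693.1.S1_a_at ran from 11.67 to 12.60 around 12.36 in replicate 2 and from 12.39 to 12.94 around 12.61 in replicate 1, with a repeatability of 0.12 (adjusted p = 0.52). Its partner Os.12693.5.S1_x_at followed it line by line (r 0.96 in replicate 2 and 0.89 in replicate 1) and had a repeatability of 0.10 (adjusted p = 0.465). Both were lower in replicate 2, by 0.30 (SE 0.02) and 0.37 (SE 0.03). The dim APX2 probe sets Os.12693.3.S1_at and Os.12693.1.S2_at had repeatabilities of 0.02 and 0.16 (adjusted p = 0.633, and 0.247 with no filter). APX4 ran from 9.25 to 10.69 around 9.76 in replicate 2 and from 9.25 to 10.12 around 9.88 in replicate 1, with a repeatability of -0.08 (adjusted p = 0.871).

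**Figure D4:**
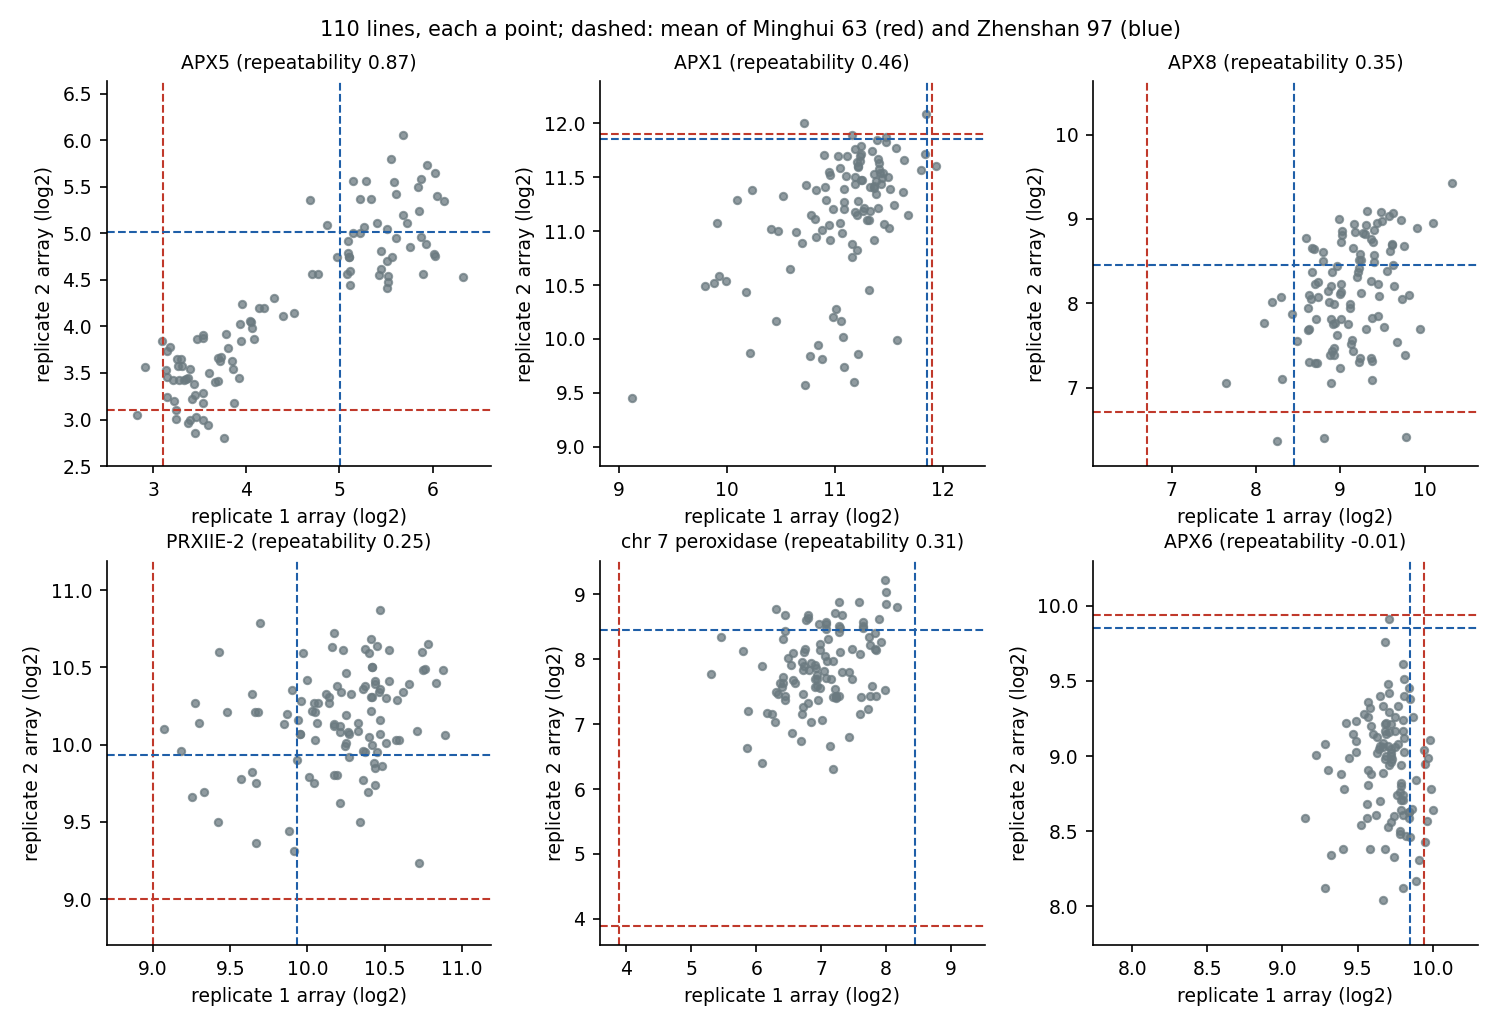
Replicate 2 against replicate 1 log2 values of the 110 lines for APX5, APX1, APX8, PRXIIE-2, the chromosome 7 peroxidase and APX6, with dashed lines at the means of Minghui 63 (red) and Zhenshan 97 (blue). APX5 points run along the diagonal in 2 clusters (repeatability 0.87), APX1 points lie mostly below both parents, and APX6 points show no diagonal (repeatability -0.01).

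Across the compartments, 6 of the 10 tested probe sets were called for the shift between replicate numbers in limma, 5 lower and 1 higher in replicate 2. The 5 were the bright APX2 pair, APX6, APX7 and APX8. With 92.2% of all probe sets called, that count is not a result about these genes. It sets the scale for single line values, which for APX8, APX6, the bright APX2 pair and the chromosome 7 peroxidase moved more between numbers than their SD over lines within either number.

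The 11 pairs of near-identical lines gave another view of these values. They were found from the 1246 probe sets with a repeatability of at least 0.5, where their correlations were at least 0.726. The median gap between the line means of a pair was 0.27 for APX5, against 0.89 over all 5995 pairs of lines, and 10 of 11 pairs lay on the same side of the mid-parent. For APX1 the gaps were 0.12 and 0.39, for APX8 0.14 and 0.43, for PRXIIE-2 0.18 and 0.26, and for the chromosome 7 peroxidase 0.28 and 0.45. Smaller gaps were not particular to members that passed the line test. APX6 had 0.11 and 0.19, APX7 had 0.12 and 0.21, and APX4 had 0.09 and 0.14. The bright APX2 pair had 0.07 and 0.14 (Os.12693.5.S1_x_at) and 0.07 and 0.09 (Os.12693.1.S1_a_at). The dim APX2 probe sets had equal gaps, 0.18 and 0.18 (Os.12693.1.S2_at) and 0.19 and 0.19 (Os.12693.3.S1_at).

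The rest of the peroxide network was read through a list of 36 other genes, of which 35 were tested, with 1 probe set each. In limma 1 was higher and 4 were lower in Minghui 63, beside 4.93% higher and 5.59% lower over all tested probe sets, and the list's median difference was -0.01 against 0.04 over all. The gene that rose was GME-1, a GDP-mannose epimerase of ascorbate synthesis (0.72, SE 0.14, adjusted p = 0.018); the other 2 of the synthesis list, GME-2 and GLDH1, had 0.20 and 0.48. The recycling enzymes MDAR2, MDAR5 and GRC2 had differences of -0.17, 0.18 and 0.15, with adjusted p-values of 0.476 to 0.614.

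The 4 genes lower in Minghui 63 all came from the peroxiredoxin and thioredoxin list, which held 20 of the 35 tested genes. They were 4 of its 20 tested members, beside 5.59% called lower over all probe sets. TRXM differed by -1.11 (adjusted p = 0.00264), TRXH by -0.85 (adjusted p = 0.00903), Trx25 by -0.80 (adjusted p = 0.0142), and bas1, a 2-Cys peroxiredoxin of the chloroplast, by -0.64 (adjusted p = 0.0329). M-type thioredoxins such as TRXM are plastid proteins, and h-type ones such as TRXH are mainly cytosolic. The plastid counterpart of PRXIIE-2, PRXIIE-1, differed by 0.16 (adjusted p = 0.547). The number of called genes in the whole network, 5, dropped to 2 without Minghui 63 replicate 1, to 1 without Minghui 63 replicate 2 and to 2 without Zhenshan 97 replicate 2.

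Other peroxide and superoxide enzymes did not pass between the parents. The catalase genes CAT-A and CAT-B, whose products break peroxide down without a reductant, had 0.13 and 0.14. The 4 superoxide dismutase genes, which form peroxide from superoxide, had a median of 0.53; SODCC.2 had the largest value, 1.47 (SE 0.58, adjusted p = 0.163). The NADPH oxidase gene RBOHB had -0.03.

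Over the lines 4 of the 35 were called, beside 16.0% of all probe sets, with a median repeatability of 0.07. They were the thioredoxin genes Trx15 (0.42, adjusted p = 3.77e-05), Trx01 (0.28, adjusted p = 0.00849) and TRXM (0.22, adjusted p = 0.045), and the class III peroxidase gene PRX74 (0.33, adjusted p = 0.00265). The catalase, superoxide dismutase, ascorbate recycling and ascorbate synthesis genes did not pass, with repeatabilities from -0.11 to 0.19 and adjusted p-values from 0.162 to 0.963.

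**Figure D5:**
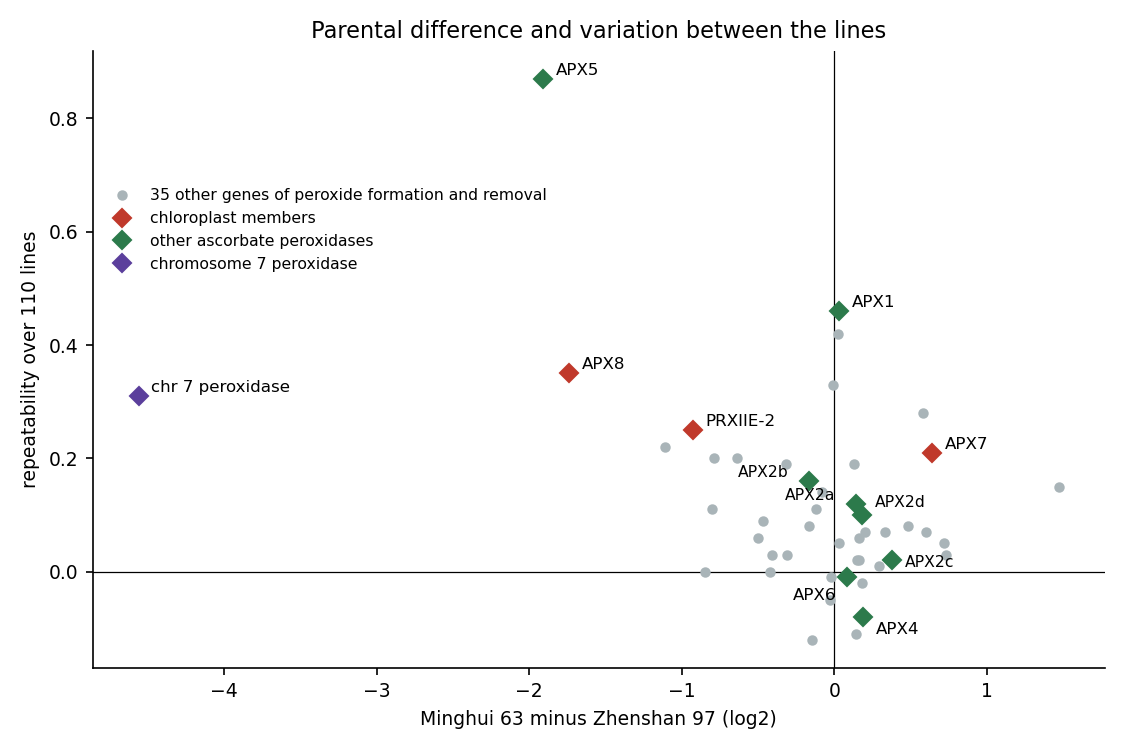
Repeatability over the 110 lines against the parental log2 difference (Minghui 63 minus Zhenshan 97) for the 12 probe sets (diamonds) and 35 other genes of peroxide formation and removal (grey points). Diamond colours mark the chloroplast members, the other ascorbate peroxidases and the chromosome 7 peroxidase. APX5 is at (-1.91, 0.87), APX8 at (-1.74, 0.35) and the chromosome 7 peroxidase, picked for its difference, at (-4.56, 0.31); the Minghui 63 values of APX5 and the chromosome 7 peroxidase are in the Tag control range, which limits the size of their differences. APX1 (0.03, 0.46) is high with a parental difference near 0, and APX2a to APX2d are the probe sets Os.12693.1.S1_a_at, Os.12693.1.S2_at, Os.12693.3.S1_at and Os.12693.5.S1_x_at.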

How the data were processed

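Shoots of 110 recombinant inbred lines and of both parents were profiled on 226 Affymetrix Rice Genome arrays; all 226 deposited columns were matched to a sample and 0 were of no sample. The deposited values are log2 values, 1 per probe set and array, from 1.16 to 14.35; per the submitters' processing notes RMA and affy were used, with versions and settings not given in the sources used here, and they were used as given. Lines and parents were grouped by their titles.

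Members, lists and tests were chosen with earlier results of these data known. Names came from the platform annotation, updated by gene identifier through RefSeq genes (assembly ASM3414082v1), from which only names, chromosomes and gene order were taken; 22436 probe sets had 1 gene, and the 95 with several and 34850 with none stayed unnamed. The annotation names no genome build, so no coordinates are printed. Other genes of peroxide formation and removal were matched by symbol or synonym, with the probe set of the highest mean for each gene; glutathione peroxidases had no match, and 1 match was dropped because it is not a thioredoxin. Up to 3 called genes per list were to be named, smallest adjusted p first, and the 3 most similar named genes of each member that varied between lines; bas1, the neighbouring genes and the list members that did not pass were chosen after their values were seen. Compartments are background knowledge.

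Control probe sets and those with a mean under 5 were left out of the tests. The parental contrast was fitted by limma (version 3.58.1; R 4.3.3), and p-values were adjusted by Benjamini-Hochberg over all tested probe sets, threshold 0.05. Lines were compared with a moderated F test whose residual variance was squeezed by limma, with replicate number as a block; all adjusted p-values are from these limma fits. The lines were to be described within replicate number, hence the block; deviations of same-numbered line arrays from their line means ran together (median r 0.705, over 0.1 in 99.45% of pairs of lines, lowest -0.156); those of same-numbered parent arrays did not (-0.307, -0.066 and -0.391), and their fit has no block. The procedures were tested on simulated data. Descriptions were computed with Python 3.11.15, pandas 2.3.3 and numpy 2.4.6. Alternatives were another filter, none, centring, all arrays in one fit, the block, and leaving out arrays or lines.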

Additional observations from a re-analysis of the deposited data

How the results depend on the processing

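Of the parental differences and replicate number shifts of single probe sets under the alternatives, 141 kept their direction and their side of the threshold, 5 lost a call, 4 gained one and 6, none of them called, changed sign. The F test between lines has no direction; 73 of its values stayed on their side of the threshold, 3 lost a call and 1 gained one. Repeatability itself turned negative in 7 of these values, with no replicate block for APX8 (-0.26), the chromosome 7 peroxidase (-0.15) and the bright APX2 pair (-0.46 and -0.37), and for Os.12693.3.S1_at with centred arrays (-0.01), without 1 line of each near-identical pair (-0.02) and without lines whose arrays matched another line better (-0.04). The 6 sign changes were the parental difference of APX1 (-0.08 to 0.21 with single arrays left out, -0.06 without Minghui 63 replicate 1 and -0.05 without Minghui 63 replicate 2), its replicate number shift (-0.07 with centred arrays), the dim APX2 probe set (0.07 without Zhenshan 97 replicate 2, no filter) and APX6 (-0.01 to 0.14 with single arrays left out). The called members numbered 3 to 4 between the parents with single arrays left out, and 2 with all 226 arrays, where APX8 had an adjusted p of 0.141; the cause was not tested. With replicate number of the parents as a block, a pairing that the deviations of the parents do not bear out, the members called were 2 (PRXIIE-2 had an adjusted p of 0.0595), APX5 had 0.0668 and the other genes of the network called were 1. Of these other genes 5 were called, 8 with a minimum mean of 7, 1 with all 226 arrays and 1 to 5 with single arrays left out. Over the lines, no replicate block left 1 member called (APX1) and 0 of the 35 other genes (1 at an unadjusted p under 0.05, limma). The shift between numbers then counts as residual, and PRXIIE-2, whose shift was -0.03, lost its call as well. Centring called 9 of the 10 members for that shift, against 6; APX4 (-0.19), PRXIIE-2 (-0.16) and the APX2 probe set Os.12693.3.S1_at (-0.18) were added. Leaving out a replicate number leaves no residual for the line test, so the SD within each number stands in its place. Without 1 line of each near-identical pair, 4 members were called as before. Signals within the Tag control range limit the differences of APX5 and the chromosome 7 peroxidase in Minghui 63. They also limit the APX5 values of its 51 low lines and of the lowest of its 55 high lines.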
